A study of Caenorhabditis elegans with 21 samples.

Results

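P granules are condensates of RNA and protein that sit around the nuclei of *C. elegans* germ cells and are passed to the germline blastomeres of the early embryo. The components studied here are made in the germline from its own transcripts and are loaded into oocytes, so their mRNAs in early embryos are largely maternal. OMA-1 is an oocyte RNA-binding protein that represses translation of maternal mRNAs, and it is normally degraded soon after the first embryonic division. FZY-1, the worm CDC20 protein, activates the anaphase promoting complex, a ubiquitin ligase. The mRNAs of 7 constitutive P granule genes were followed, *pgl-1*, *pgl-3*, *glh-1*, *glh-2*, *glh-4*, *deps-1* and *elli-1*. They were taken by name and matched to gene identifiers, and all 7 were found among the 46891 genes of the embryo tables and among the 18887 genes of the adult files. PGL-1 and PGL-3 are paralogous scaffold proteins that assemble the granule. GLH-1, GLH-2 and GLH-4 are DEAD-box helicases related to Vasa. DEPS-1 is needed for P granule assembly and for efficient RNA interference. ELLI-1 works in small RNA silencing and forms cytoplasmic germline aggregates that are known to lie beside P granules rather than to coincide with them, so the name of the group suits *elli-1* least.

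Of these genes, 4 lie on chromosome I of the WBcel235 annotation, which was matched by identifier. *glh-1* (WBGene00001598) spans 6854478 to 6857536, *glh-2* (WBGene00001599) spans 6513928 to 6517507, *glh-4* (WBGene00001601) spans 3727027 to 3731179 and *deps-1* (WBGene00022034) spans 506473 to 509056. *pgl-1* (WBGene00003992, 6974441 to 6977318) and *elli-1* (WBGene00008968, 8752699 to 8754827) lie on chromosome IV, and *pgl-3* (WBGene00003994, 4755979 to 4758587) lies on chromosome V. *elli-1* is 134 kb from *oma-1* itself, and *pgl-1* is 1912 kb from it. All are protein coding. In *deps-1*, 5.33% of the exonic bases are shared with the neighbouring coding gene Y65B4BL.7, and 3.64% of those of *elli-1* are shared with a non-coding gene. Reads of these stretches may be missing from the counts or may not be their own. The 3 *glh* genes are paralogs, as are *pgl-1* and *pgl-3*, and reads of near-identical stretches could have been left uncounted or given to the wrong gene. How such reads were handled was not checked.

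Early embryos were isolated by bleaching synchronised young adults kept at 25 °C, from the wild type strain N2, from *oma-1(zu405)*, a temperature sensitive allele under which embryos die, and from *fzy-1(D433N);oma-1(zu405)*, called the double mutant here. Each genotype has 3 labelled samples, but counts were available for only 2 libraries per genotype. These are A1 and A2 (N2), C1 and C2 (*oma-1(zu405)*), and D1 and D3 (double mutant). The genotype of each letter was inferred from the comparisons with N2 in which it stands. Young adults of 3 CRISPR knock-in strains kept at 25 °C, oma-1-gfp, oma-1ts-gfp (the temperature sensitive form with the same tag) and fzy-1;oma-1ts-gfp, gave total RNA (input) and RNA recovered with OMA-1 on anti-GFP beads (RNA immunoprecipitation, RIP), with 2 replicates of each and 100000 animals a sample. No untagged RIP was analysed here, so RNA that binds the beads without OMA-1 is not subtracted. The last of these strains is called the *fzy-1* tagged strain from here on. Nothing in the labels says that replicates came from separate cultures, so p-values measure only the spread between these samples.

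Embryo libraries held 3599426 to 18815357 counts. The double mutant libraries stood apart from each other. The share of ribosomal RNA was 5.98% for D1 against 0.0525% for D3, the fitted biological coefficient of variation was 0.784 in the double mutant against 0.0818 for N2 libraries and 0.121 for those of *oma-1(zu405)*, and the scale factors of edgeR's TMM method were 0.450 in D1 and 1.55 in D3. Germline and oocyte markers were present in every library, with 0 of 8 genes at 0. All levels below are of bulk material, in which fewer cells of a type and less RNA per cell cannot be told apart.

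In N2 embryos the P granule mRNAs were present at low to moderate levels, close between both libraries for all but *elli-1*. Levels are given as normalised CPM, that is CPM (counts scaled to a common library total) after correction by TMM factors. *pgl-1* stood at 31.1 in A1 and 29.8 in A2, *glh-1* at 36.7 and 33.9 and *deps-1* at 34.7 and 36.8. *glh-2* stood at 14.8 and 11.99, and *glh-4* at 12.9 and 11.6. *elli-1* stood at 10.5 and 6.05 and *pgl-3* at 3.25 and 4.03, so these were the least abundant by CPM. Divided by exonic length, the order of the normalised levels in both N2 libraries was *deps-1*, *glh-1*, *pgl-1*, *elli-1*, *glh-2*, *glh-4* and *pgl-3*, from 17.5 ± 0.730 down to 1.59 ± 0.241 CPM per kb (SD, n = 2). *glh-1* at 12.7 ± 0.722 and *pgl-1* at 12.2 ± 0.344 CPM per kb did not differ beyond their spread, nor did *elli-1* at 5.39 ± 2.06 and *glh-2* at 4.16 ± 0.614. *glh-4* at 3.28 ± 0.253 lay below *glh-2* in both libraries.

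All 7 mRNAs were more abundant in *oma-1(zu405)* embryos than in N2, and for each of them both mutant libraries lay above both N2 libraries. Separation of libraries was not counted over all genes, here or in the later embryo and adult comparisons. By itself it therefore does not set these genes apart, and shares of all genes are given below for the tests only. The granule scaffold genes rose to like levels in both mutant libraries. *pgl-1* reached 249 normalised CPM in C1 and 262 in C2, and *pgl-3* reached 40.2 and 40.0. The log2 fold changes were 2.98 ± 0.16 (SE) for *pgl-1*, 7.91-fold, and 3.43 ± 0.24 for *pgl-3*, 10.8-fold, with edgeR adjusted p-values of 2.92e-16 and 1.45e-13. For both genes the libraries of each genotype lay close together and the genotypes lay far apart.

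The helicase genes rose least. *glh-1* stood at 124 normalised CPM in C1 and 125 in C2, *glh-2* at 42.2 and 49.7, and *glh-4* at 53.7 and 53.8. Their log2 fold changes were 1.74 ± 0.16 for *glh-1*, 1.67 ± 0.20 for *glh-2* and 2.05 ± 0.19 for *glh-4* (SE), with edgeR adjusted p-values of 4.91e-11, 1.10e-08 and 1.14e-10. *glh-1* and *glh-2* passed the adjusted p of 0.05 but not the log2 fold change of 2 required for a call here, and *glh-4* stood just beyond it. *glh-4* fell short of it without A1 (1.97), without A2 (1.79) or without C1 (1.97).

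*deps-1* had the largest log2 fold change, followed by *elli-1*, which lay within its SE of *pgl-3*. *deps-1* reached 505 normalised CPM in C1 and 620 in C2, a log2 fold change of 3.88 ± 0.16 (SE), 14.7-fold (edgeR adjusted p = 4.91e-18). *elli-1* reached 147 in C1 and 75.6 in C2, a log2 fold change of 3.67 ± 0.26, 12.7-fold (edgeR adjusted p = 1.83e-13). Within N2 and within *oma-1(zu405)*, *elli-1* was the least even of the 7 between libraries, with C1 at 1.94 times C2 and A1 at 1.74 times A2. These 2 genotypes still did not overlap. Without C1 its log2 fold change was 2.96, and without A2 it was 3.18, both below those of *pgl-3* in the same fits (3.37 and 3.36).

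**Figure D1:**
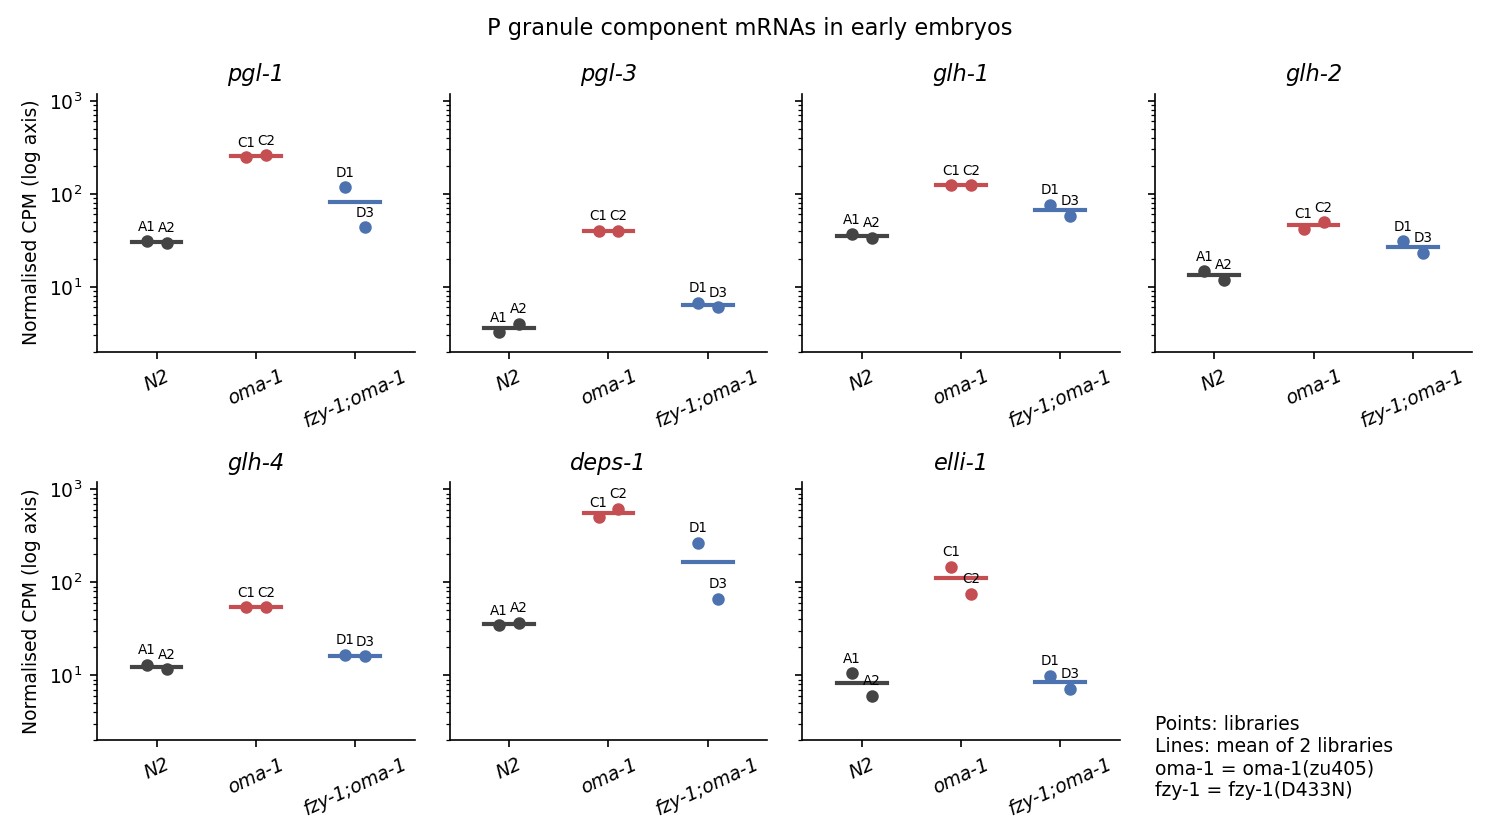
Normalised CPM (log axis) of each P granule gene in the 6 embryo libraries, by genotype, with points for libraries and lines for the mean of 2 libraries. Both *oma-1(zu405)* libraries sit above both N2 libraries for all 7 genes, and *elli-1* falls back to 7.15 to 9.87 in the double mutant. On this scale D1 and D3 part most for *deps-1* (266 and 66.6).

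In all, 5 of the 7 genes were called higher and 0 lower, where 11.6% of the 12520 genes tested were called higher and 22.6% lower. All 7 passed the adjusted p alone in the upward direction, as did 34.8% of all genes. The median log2 fold change of the 7 was 2.98 against −0.24 over all genes tested, and their ranks among all genes ran from the 84.4th percentile (*glh-2*) to the 99.2nd (*deps-1*). The size of the changes depended on the scale. With library totals in place of TMM, the log2 fold changes ran from 0.41 (*glh-2*) to 2.64 (*deps-1*), 3 of 7 were called (*pgl-3*, *elli-1* and *deps-1*), and all 7 still passed the adjusted p. On that scale 2.43% of genes were called higher and 40.6% lower, and 15.6% passed the adjusted p upward. That change of scale moved the median of all genes to −1.51, and the median of the 7 lay 3.22 above the median of all genes with TMM and 3.24 above it with totals. When all 6 libraries shared one estimate of the spread, 0 of the 7 were called by edgeR, with adjusted p-values of 0.0536 to 0.0548, and 0 of all genes were called, 5371 of them having an unadjusted p under 0.05.

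The 8 germline and oocyte markers were higher as well, all 8 past the adjusted p and 6 of them called (7 and 4 with totals). Their summed level was 346 and 354 normalised CPM for N2 against 3027 and 3215 for *oma-1(zu405)*. The sum of the 7 granule genes went from 144 and 134 to 1162 and 1225. By library totals the marker sum went from 599 and 617 to 2122 and 2178 CPM. The 10 somatic zygotic markers summed to 653 and 679 normalised CPM for N2 and to 744 and 786 for *oma-1(zu405)*, but by totals to 1130 and 1184 and to 522 and 532 CPM. The part of embryo stage or of maternal content in the granule results was not tested. Of the genes that a published classification calls gender neutral in the germline, to which 5 of the 7 belong, 14.6% were called higher and 10.1% lower in this comparison. Of the oogenic class, to which *glh-2* belongs, 17.6% were called higher and 6.16% lower, and *deps-1* has no germline class in that list.

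Counts within a library give a view that no scaling between libraries can change. Of the counts of the 7 genes together, *deps-1* took 24.1% in A1 and 27.4% in A2 but 43.5% in C1 and 50.6% in C2. The share of *glh-1* went the other way, from 25.5% and 25.2% to 10.7% and 10.2%. Exact binomial 95% intervals, which cover counting error only, were 42.7% to 44.3% for *deps-1* in C1 and 23.0% to 25.4% in A1. There were thus 0.946 and 1.09 counts of *deps-1* for each count of *glh-1* in N2, against 4.06 and 4.97 in the *oma-1(zu405)* libraries. *pgl-1* kept a share of 21.4% to 22.2% in these 4 libraries. *glh-2* went from 10.3% and 8.93% to 3.64% and 4.06%, and *glh-4* from 8.99% and 8.65% to 4.62% and 4.39%. The P granule transcripts therefore did not change by one common factor, and this holds whatever the scale. These are shares of counts, which also weigh transcript length, so they compare a gene between libraries and not one gene with another.

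**Figure D2:**
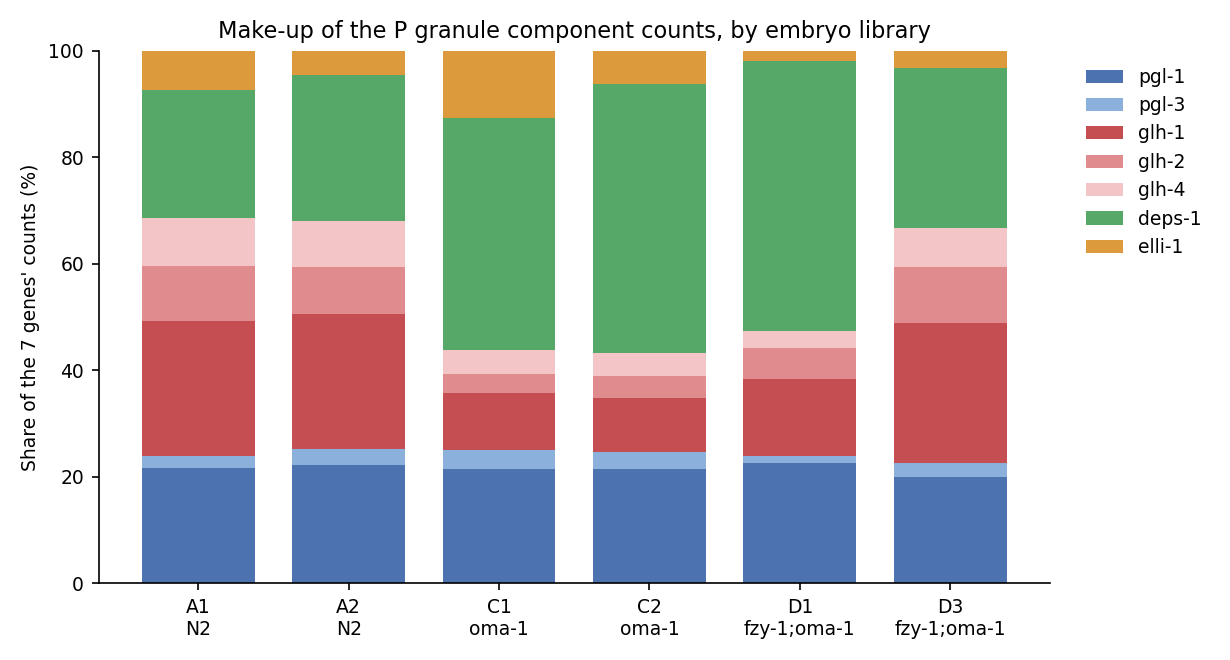
Share of the summed counts of the 7 genes (percent) taken by each gene in each embryo library. The *deps-1* band covers 24.1% and 27.4% for N2, widens to 43.5% and 50.6% for *oma-1(zu405)*, and differs between the double mutant libraries at 50.7% in D1 and 30.1% in D3.

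In the double mutant the mean normalised level of each of the 7 mRNAs lay between those of N2 and *oma-1(zu405)*, and D1 and D3 differed in where. *pgl-1* stood at 118 normalised CPM in D1 and 43.9 in D3, and *deps-1* at 266 and 66.6, a wide gap between libraries of one genotype. *glh-1* stood at 76.5 and 58.1 and *glh-2* at 30.8 and 23.3. *pgl-3* (6.78 and 6.02), *glh-4* (16.7 and 15.99) and *elli-1* (9.87 and 7.15) were low, and close between the libraries with TMM. On this scale 6 of the 7 genes lay above both N2 libraries, and *elli-1* overlapped them. By library totals only *deps-1*, at 120 and 103 CPM, lay above both N2 libraries (60.2 and 64.3), and the other 6 overlapped them. For every gene but *deps-1* the totals also turned the gap between D1 and D3 around. By totals *pgl-1* stood at 53.3 CPM in D1 and 68.0 in D3, *pgl-3* at 3.06 and 9.31 and *glh-4* at 7.50 and 24.7. Which of the 2 libraries is higher, and how close they lie, thus depends on the scale for these genes.

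Against N2, 0 of the 7 were called in the double mutant, where 0.0% of 12684 genes were called by edgeR. The same test gave 506 genes an unadjusted p under 0.05, and DESeq2 called 388 genes, none of the 7 among them. The log2 fold changes were 2.15 ± 0.80 (SE) for *deps-1*, 1.36 ± 0.62 for *pgl-1*, 0.97 ± 0.46 for *glh-2*, 0.89 ± 0.44 for *glh-1*, 0.78 ± 0.56 for *pgl-3*, 0.38 ± 0.46 for *glh-4* and −0.01 ± 0.58 for *elli-1*. The edgeR adjusted p was 0.643 for *deps-1*, the gene farthest from 0. The fold changes turned on which library was kept. Without D1, the log2 fold changes were 0.72 for *glh-1*, 0.79 for *glh-2*, 0.54 for *pgl-1* and 0.91 for *deps-1*, and none of the 7 passed 2. Without D3, those of the same 4 genes were 1.06, 1.13, 1.91 and 2.86, so *deps-1* lay beyond 2. In these fits the lone library was assumed to vary as the N2 libraries do, so only the fold changes are given.

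Against *oma-1(zu405)*, all 7 mRNAs were lower in the double mutant in both libraries on the TMM scale. By library totals 5 lay below, and *glh-1* and *glh-2* overlapped, as D3 (89.9 and 36.1 CPM) stood above both *oma-1(zu405)* libraries. Again 0 were called, where 0.0% of 10477 genes were. An unadjusted p under 0.05 was reached by 860 genes in the edgeR test, and DESeq2 called 25 genes. *elli-1* had a log2 fold change of −3.56 ± 0.62 (SE), lower by 11.8-fold, with an unadjusted p of 0.00205 and an edgeR adjusted p of 0.585. *pgl-3* stood at −2.49 ± 0.52, *deps-1* at −1.61 ± 0.87, *glh-4* at −1.55 ± 0.46, *pgl-1* at −1.51 ± 0.68, *glh-1* at −0.73 ± 0.49 and *glh-2* at −0.61 ± 0.47. *elli-1* was at the 0.105th percentile of all genes tested and *pgl-3* at the 0.296th. DESeq2 called *elli-1* lower (adjusted p = 0.0210), as did edgeR when genes with low counts were kept (adjusted p = 0.00159). Without D1 4 of the 7 were called lower, *elli-1* (−3.80), *deps-1* (−2.88), *pgl-3* (−2.54) and *pgl-1* (−2.34), and all 7 passed the adjusted p, where 8.17% of genes were called lower and 32.4% passed the adjusted p downward. Without D3 2 were called, *elli-1* (−3.32) and *pgl-3* (−2.35), and 5 passed the adjusted p, where 6.95% and 30.3% of genes did. In both fits the double mutant was 1 library assumed to vary as the *oma-1(zu405)* libraries do, whose coefficient of variation was far below its own, so these p-values leave out the gap between D1 and D3. The comparison with N2 and this one share the double mutant libraries, and both comparisons with N2 share A1 and A2.

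**Figure D3:**
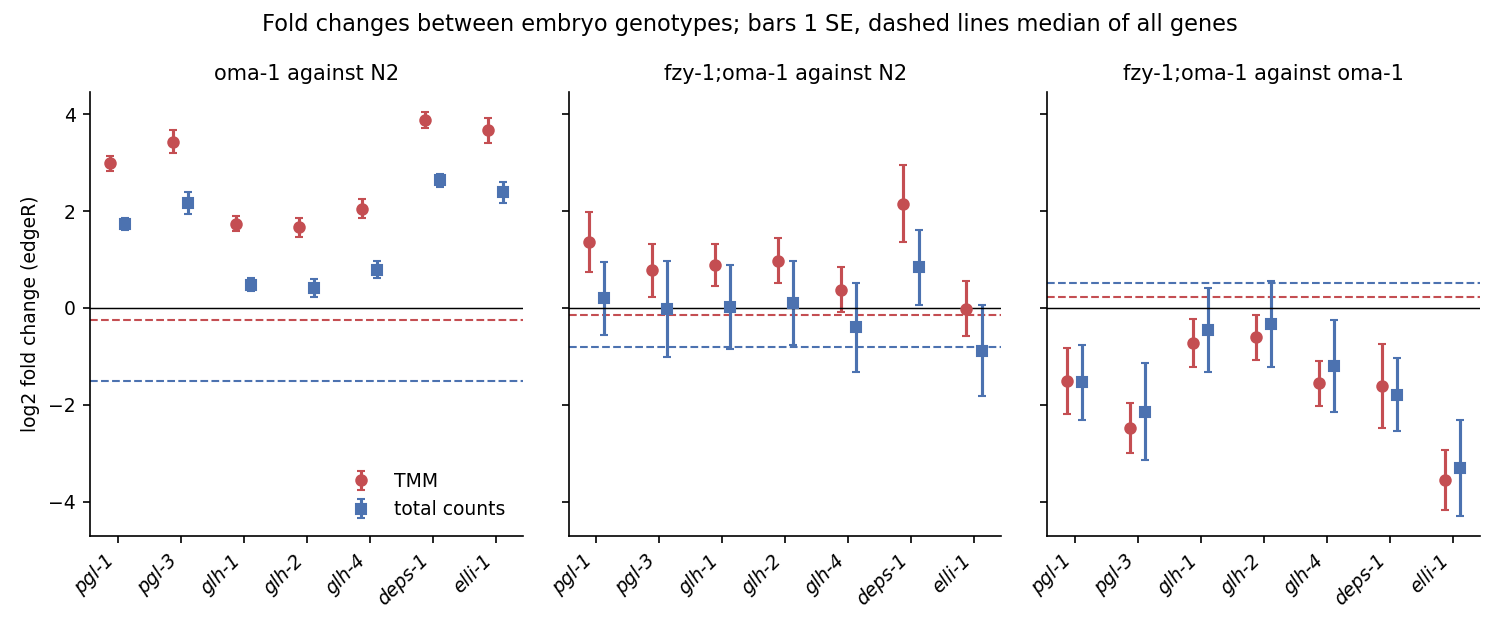
log2 fold changes from edgeR of the 7 genes in the 3 comparisons of embryo genotypes, with TMM (circles) and with library totals (squares). Bars are 1 SE and dashed lines the median of all genes tested. Against N2 the *oma-1(zu405)* values run from 1.67 to 3.88 with TMM and from 0.41 to 2.64 with totals, and the long bars of the double mutant follow the gap between D1 and D3.

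Within libraries, the make-up of the granule counts in D1 was near that of *oma-1(zu405)* for *deps-1*, at 50.7% (exact 95% interval 47.3% to 54.1%), and in D3 it was nearer that of N2, at 30.1% (28.3% to 32.0%). D3 held 26.3% *glh-1* and 10.5% *glh-2*, close to the N2 shares, while D1 held 14.6% and 5.87%. *elli-1* took only 1.88% of the granule counts in D1 and 3.23% in D3, below all 4 other libraries, where it took 4.50% to 12.6%. The germline and oocyte markers summed to 1334 normalised CPM in D1 and 414 in D3, and the somatic zygotic markers to 320 and 744. By library totals the germline and oocyte sums were close, at 601 and 641 CPM, while the somatic sums were 144 and 1151. D1 and D3 thus differed in the somatic list on both scales and in the germline and oocyte list with TMM only. The part of these lists in the granule results was not tested.

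The 7 genes were set beside 29 other germ granule genes in 4 lists, which share *csr-1*, and all 29 were tested. In *oma-1(zu405)* against N2, 10 were called higher and 0 lower, 24 passed the adjusted p upward and 4 downward, and their median log2 fold change was 1.27, which is lower than the 2.98 of the 7 genes. With library totals 1 was called higher and 3 lower, and the median was 0.01. Of 11 P granule paralogs and associated proteins 7 were called higher, from *ife-1*, a cap-binding eIF4E protein, at 4.15 to *pgl-2*, a paralog of *pgl-1*, at −0.82. With totals 1 was called higher and 1 lower. Of the 4 MEG proteins, which form the outer phase of embryonic P granules, 2 were called higher, from *meg-2* at 3.24 to *meg-3* at 1.39, and 0 with totals. Of 4 CSR-1 pathway genes only the Argonaute *csr-1* was called, at 2.02, and *drh-3*, a helicase, stood lowest at −0.76. Of 11 Z granule and Mutator genes the Argonaute *wago-4* was called at 3.25, and the helicase gene *znfx-1* stood lowest at −1.64. With totals 0 genes of either list were called higher and 1 of each lower. In the double mutant comparisons 0 of the 29 were called by edgeR against N2 or against *oma-1(zu405)*, with medians of 0.48 and −0.66.

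The mRNAs whose log2 levels followed the mean profile of the 7 genes most closely over the 6 embryo libraries were *rbm-39*, *plk-1*, the Polo-like kinase gene, and *kin-19*, a casein kinase gene, with Pearson's r of 0.9995, 0.9993 and 0.9986 among 7902 genes. The 7 themselves, which make up that mean, correlated with it at 0.938 (*elli-1*) to 0.984 (*pgl-1*). These points share libraries and scaling, and 3 genotypes make up the 6 points.

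In young adults the total RNA of all 3 strains held the 7 mRNAs at levels that mostly differed little. Levels are in RPKM, reads scaled by transcript length and library total, on a scale inferred from the values, so ratios are safer than absolute levels. Over the 6 input libraries *pgl-1* was the most abundant, with a lowest value of 74.0, a median of 96.5 and a highest of 106. *deps-1* followed (41.2, 66.7 and 92.4), then *pgl-3* (26.4, 29.2 and 33.1), *glh-1* (21.9, 27.2 and 32.4), *glh-2* (15.9, 17.0 and 20.7) and *glh-4* (12.5, 13.8 and 16.3). The ranges of *pgl-3* and *glh-1* overlap, as do those of *glh-2* and *glh-4*. *pgl-1* and *deps-1* overlap as well. *elli-1* spanned the widest range (7.38, 14.8 and 44.1). For 5 of the genes the highest input was 1.25 to 1.48 times the lowest. It was 2.24 times for *deps-1* and 5.98 times for *elli-1*.

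*elli-1* had the widest range of adult levels between strains. Its input stood at 12.2 and 17.5 RPKM in oma-1-gfp, at 7.38 and 9.62 in oma-1ts-gfp and at 24.2 and 44.1 in the *fzy-1* tagged strain, so no 2 strains overlapped. The strains did not overlap for *glh-1* either (21.9 and 23.1, 31.9 and 32.4, 27.7 and 26.7), and *pgl-1* was higher in both oma-1ts-gfp inputs than in the other strains, but neither was called. For *elli-1* the *fzy-1* tagged strain was above oma-1ts-gfp by a log2 difference of 1.84 ± 0.31 (SE) on log2(RPKM + 1), with a limma adjusted p of 0.00217. This was the only one of the 7 called in that comparison, where 7.21% of 11736 genes were called higher. oma-1ts-gfp lay below oma-1-gfp by −0.73 ± 0.31 (limma adjusted p = 0.252), and the *fzy-1* tagged strain lay above oma-1-gfp by 1.11 ± 0.31 (limma adjusted p = 0.0597). In these comparisons 0 of the 7 were called, where 4.72% and 5.1% of genes were called in either direction. The latter passed with the replicate number as a block (adjusted p = 0.0208) and without replicate 1 of the *fzy-1* input (adjusted p = 0.0202). Sperm markers moved between the same inputs. The sum of 8 of them was 13.1 and 7.73 RPKM in oma-1-gfp, 64.7 and 60.6 in oma-1ts-gfp and 589 and 270 in the *fzy-1* tagged strain, where *elli-1* had its lower value in the replicate with the higher sum. Their part in the *elli-1* level was not tested.

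**Figure D4:**
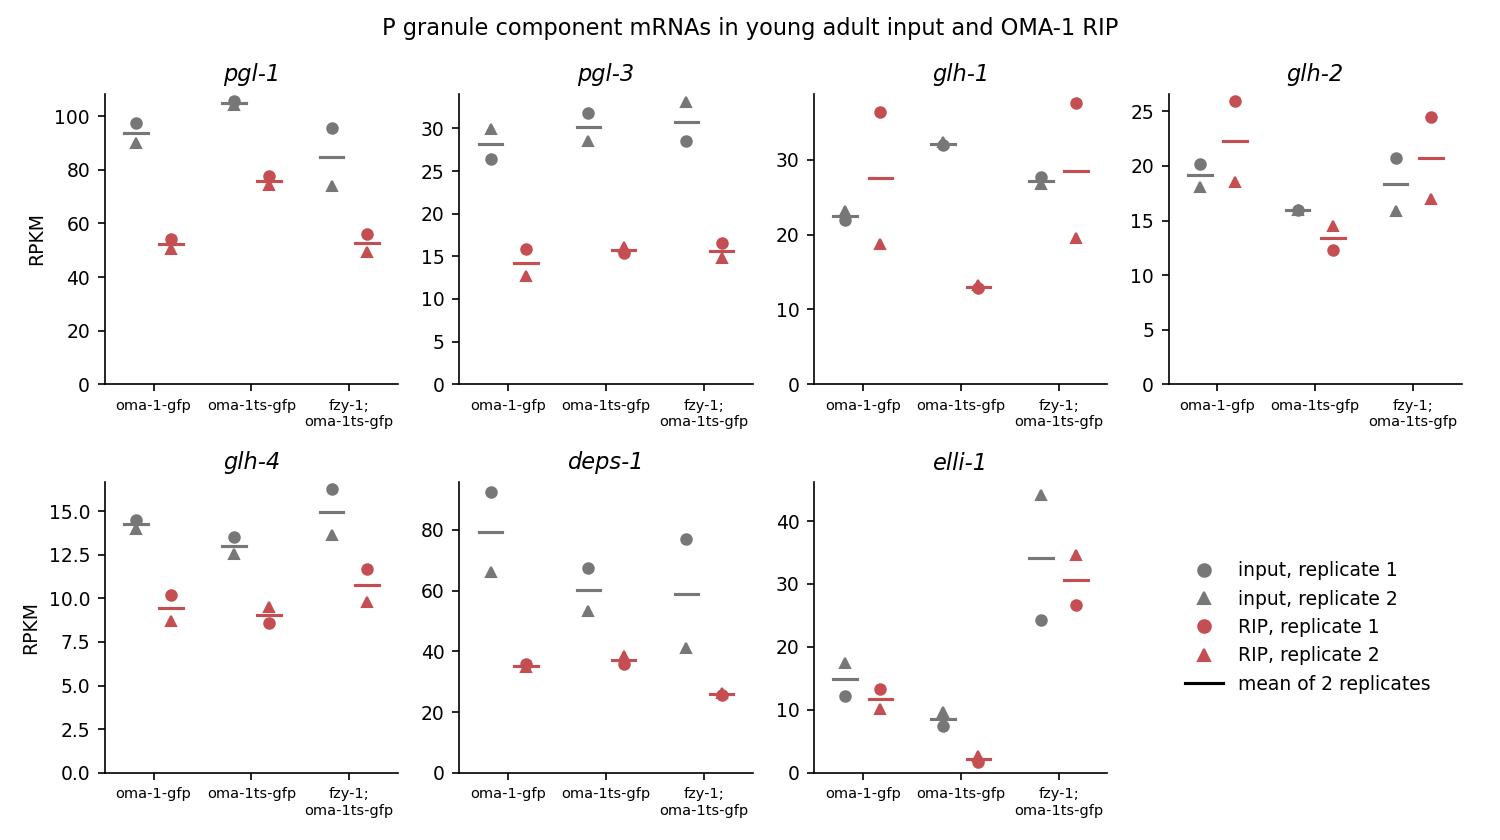
RPKM of each P granule gene in input (grey) and RIP (red) of the 3 young adult strains, with circles for replicate 1, triangles for replicate 2 and lines for their mean. RIP of *pgl-1*, *pgl-3*, *glh-4* and *deps-1* lies below input in all strains, and *elli-1* runs from 1.71 to 2.66 in the RIP of oma-1ts-gfp to 26.7 to 34.6 in that of the *fzy-1* tagged strain.

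In no strain was any of the 7 mRNAs called higher in the OMA-1 RIP than in input (limma), nor did any reach an unadjusted p under 0.05 upward. The scaffold mRNAs were recovered below input throughout. *pgl-1* stood at 54.05 and 50.4 RPKM in the RIP of oma-1-gfp against 97.4 and 89.9 in input, at 77.5 and 74.5 against 106 and 104 in oma-1ts-gfp, and at 56.2 and 49.5 against 95.7 and 74.0 in the *fzy-1* tagged strain. *pgl-3* stood at 15.8 and 12.7 against 26.4 and 29.9, at 15.4 and 16.1 against 31.8 and 28.6, and at 16.5 and 14.8 against 28.5 and 33.1. RIP and input did not overlap for either gene in any strain. The log2 differences of *pgl-1* were −0.83 ± 0.26, −0.46 ± 0.11 and −0.66 ± 0.29 in this order of strains and those of *pgl-3* were −0.94 ± 0.27, −0.89 ± 0.14 and −0.93 ± 0.27 (SE). *pgl-3* passed the adjusted p in all strains (limma, 0.0226, 0.00141 and 0.0238), *pgl-1* in oma-1-gfp (0.0342) and oma-1ts-gfp (0.0105), and neither passed the log2 fold change of 1 required for a call. *pgl-3* did pass it without RIP replicate 1 of oma-1-gfp (−1.08) or of the *fzy-1* tagged strain (−1.01).

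*deps-1* was recovered least of all in oma-1-gfp, where it stood at 35.9 and 34.7 RPKM in RIP and 92.4 and 66.0 in input. In oma-1ts-gfp it stood at 35.9 and 38.5 against 67.3 and 53.4, and in the *fzy-1* tagged strain at 25.7 and 26.1 against 76.8 and 41.2. It was called lower in oma-1-gfp (−1.12 ± 0.28, limma adjusted p = 0.0138) and in the *fzy-1* tagged strain (−1.09 ± 0.34, limma adjusted p = 0.0294), and not in oma-1ts-gfp (−0.67 ± 0.14, limma adjusted p = 0.00630). Its RIP values were even, and the spread lay in the inputs. Without replicate 1 of the input the log2 difference was −0.88 in oma-1-gfp (adjusted p = 0.272) and −0.65 in the *fzy-1* tagged strain (adjusted p = 0.270), and without input replicate 2 of oma-1-gfp, or without either RIP replicate of the *fzy-1* tagged strain, the adjusted p was 0.0501 to 0.0727.

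The helicase mRNAs behaved less alike. *glh-4* stood below input in all strains, by log2 differences of −0.55 ± 0.27, −0.48 ± 0.16 and −0.44 ± 0.28 (SE), of which that of oma-1ts-gfp passed the adjusted p (limma, 0.0382). *glh-2* stood near its input, at 0.19 ± 0.28, −0.24 ± 0.16 and 0.16 ± 0.30. *glh-1* stood at 36.3 and 18.7 RPKM in the RIP of oma-1-gfp, on both sides of its inputs of 21.9 and 23.1, and likewise at 37.6 and 19.5 in the *fzy-1* tagged strain, with inputs of 27.7 and 26.7. In oma-1ts-gfp its RIP values were 12.8 and 13.2 against inputs of 31.9 and 32.4. There it was called lower (−1.24 ± 0.13, limma adjusted p = 0.000295), and in the other strains it was not (0.21 ± 0.33 and −0.00 ± 0.34). RIP replicate 1 was thus well above replicate 2 in the same pair of strains. Over all genes, the differences between RIP replicates 1 and 2 in these strains correlated at 0.561 (11736 genes, which are not independent replicates).

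The RIP values of *elli-1* overlapped its inputs in both oma-1-gfp (13.2 and 10.1 RPKM against 12.2 and 17.5) and the *fzy-1* tagged strain (26.7 and 34.6 against 24.2 and 44.1). In oma-1ts-gfp it fell to 1.71 and 2.66 in RIP from 7.38 and 9.62 in input and was called lower (−1.58 ± 0.25, limma adjusted p = 0.00161). The RIP mean in that strain was 5.33-fold below that of oma-1-gfp. The fold changes are on the log2(RPKM + 1) scale, which understates those of low mRNAs such as this one.

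By strain, 0 of the 7 were called higher in the RIP, where 9.12% (oma-1-gfp), 6.32% (oma-1ts-gfp) and 9.14% (*fzy-1* tagged strain) of genes were. Called lower were 1 (*deps-1*), 2 (*glh-1* and *elli-1*) and 1 (*deps-1*), where 19.4%, 21.2% and 21.0% of genes were, so these shares were near those of all genes. Past the adjusted p alone and lower were 3, 6 and 2 of the 7, against 27.7%, 39.0% and 28.2% of genes. The median of the 7 was −0.55, −0.67 and −0.44, and that of all genes tested −0.37, −0.34 and −0.41, so RPKM was lower in RIP than in input for most genes. With each library centred on its median, 0, 1 (*elli-1*) and 0 of the 7 were called, and changes are to be read against that shift. *oma-1* itself, by comparison, stood at 330 and 321 RPKM in the RIP of oma-1-gfp against 121 and 89.5 in input.

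**Figure D5:**
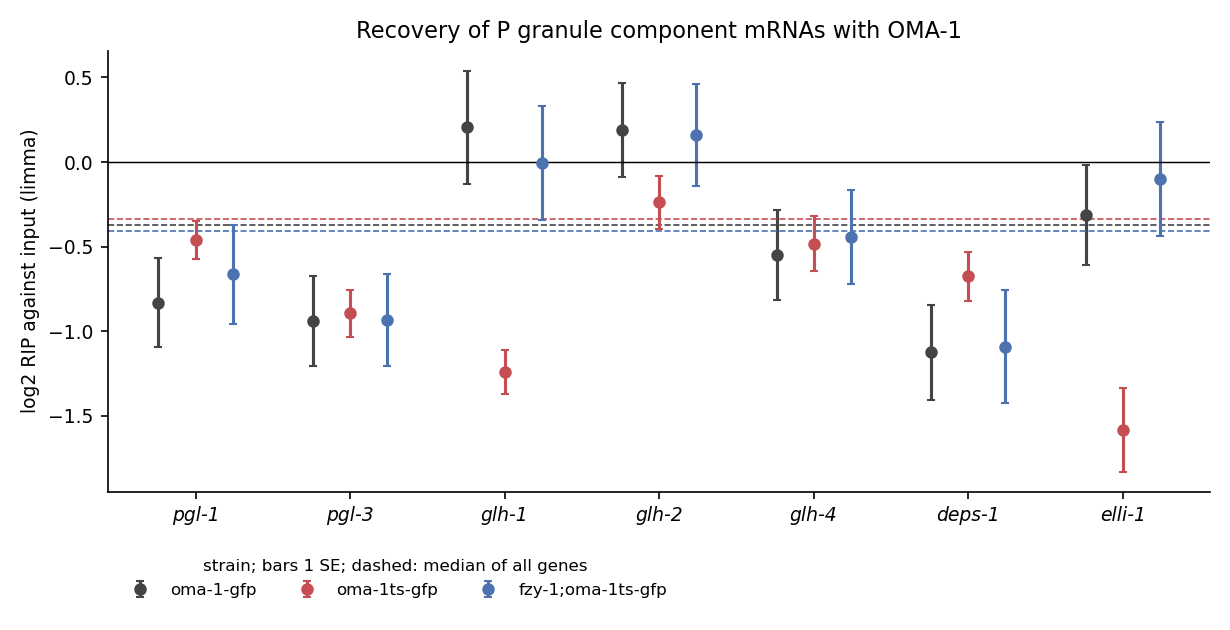
log2 difference of RIP and input from limma for each P granule gene in the 3 strains. Bars are 1 SE and dashed lines the median of all genes tested in each strain. *pgl-3* sits at −0.94 to −0.89 in every strain, while *glh-1* (−1.24) and *elli-1* (−1.58) sit lowest in oma-1ts-gfp alone.

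The strains were compared directly by the difference of their enrichments, in one fit of the 12 libraries. Between oma-1ts-gfp and oma-1-gfp, 0 of the 7 were called, where 5.13% of genes were called in either direction (limma). The differences farthest from 0 were those of *glh-1* (−1.45 ± 0.45, limma adjusted p = 0.0856) and *elli-1* (−1.27 ± 0.43, limma adjusted p = 0.116), and 2 of the 7 had an unadjusted p under 0.05. The share of all genes under that p is not given here, so this count does not set the 7 apart. Between the *fzy-1* tagged strain and oma-1ts-gfp these genes moved back, *glh-1* by 1.24 ± 0.45 (adjusted p = 0.103) and *elli-1* by 1.48 ± 0.43 (adjusted p = 0.0530), and 0 of the 7 were called, where 9.47% of genes were. That *elli-1* difference passed with a pseudocount of 0.1 (adjusted p = 0.0413), with libraries centred on their median (0.0464), with the replicate block (0.0326) and without input replicate 2 of the *fzy-1* tagged strain (0.0267). Without RIP replicate 2 of that strain *glh-1* passed (1.69, adjusted p = 0.0381), and without RIP replicate 2 of oma-1-gfp it passed in the first comparison (−1.91, adjusted p = 0.0204). Between the *fzy-1* tagged strain and oma-1-gfp the 7 differences lay between −0.21 and 0.21, and 0 were called, where 0.0852% of genes were. The first 2 of these comparisons share the oma-1ts-gfp libraries, so values that go down and then up rest in part on the same 4 libraries.

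Somatic markers changed between the same RIP libraries. The sum of 8 intestine and yolk markers was 1313 and 1075 RPKM in the RIP of oma-1-gfp, 223 and 251 in that of oma-1ts-gfp and 956 and 941 in that of the *fzy-1* tagged strain, against inputs of 1116 to 1940. The sum of 6 muscle markers was 3049 and 2588, 1072 and 880, and 2902 and 3578 in RIP, against inputs of 997 to 1248. Single markers did not all follow the sum. The muscle marker *unc-27* had an enrichment difference between oma-1ts-gfp and oma-1-gfp of 1.27, against −3.56 for *act-4*. Germline and oocyte markers summed to 2892 to 3494 in all RIP libraries, yet *gld-1*, a germline translational repressor gene, was lower in the RIP of oma-1ts-gfp (−1.56), with a difference from oma-1-gfp of −2.14 (limma adjusted p = 0.0443) and from oma-1ts-gfp to the *fzy-1* tagged strain of 2.69 (limma adjusted p = 0.0114). The somatic sums were thus lowest in the strain in which *glh-1* and *elli-1* were lowest, and their part in those values was not tested.

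Of 28 other germ granule genes tested in the RIP, 5 were called higher in each strain and 1, 2 and 3 lower in oma-1-gfp, oma-1ts-gfp and the *fzy-1* tagged strain. The Argonaute mRNA *wago-1* was the highest of the P granule paralogs and associated proteins in all strains, at 2.32, 1.80 and 2.16, and the lowest was *cgh-1*, a DEAD-box helicase gene, at −0.92 and −2.70 in oma-1-gfp and oma-1ts-gfp and *lotr-1* at −1.05 in the *fzy-1* tagged strain. All 4 MEG mRNAs were called higher in oma-1ts-gfp and 0 in either other strain (1 in each with median-centred libraries), led by *meg-2* in each (1.01, 2.00 and 0.85). In oma-1-gfp *meg-2* narrowly missed the limma adjusted p (0.0504). Compared directly, the MEG differences between oma-1ts-gfp and oma-1-gfp ran from 0.97 (*meg-4*) to 1.18 (*meg-3*), and none was called. From oma-1ts-gfp to the *fzy-1* tagged strain they ran from −1.09 (*meg-4*) to −1.57 (*meg-3*, called, limma adjusted p = 0.0180). Of 4 CSR-1 pathway genes 0, 0 and 1 (*drh-3*, −1.08) were called lower and none higher, and of 10 Z granule and Mutator genes 3, 0 and 3 were called higher, with *mut-7*, *mut-2* and *wago-4* the highest, and 1, 0 and 2 lower. Of the 7 constitutive components 0 were called higher in any strain. Over all genes 9.12%, 6.32% and 9.14% were called higher in this order of strains, so 0 of 7 is near the share of all genes. No test compared the lists.

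Over the 12 adult libraries the genes most like the mean profile of the 7 were *istr-1*, *vit-2*, a yolk protein gene, and *mecr-1*, at Pearson's r of 0.985, 0.984 and 0.982 among 4683 genes. The 7 themselves ranged from 0.455 (*pgl-1*) to 0.939 (*glh-4*), so their mean described them less well than in embryos. These points share the input and RIP split and their libraries.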

How the data were processed

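Embryo reads were aligned with HISAT2 2.0.5 and counted with HTSeq 0.6.0 after CASAVA 1.4, per the labels, and the authors deposited whole counts per gene. Depth sets the precision: 3 counts, the most that a count of 0 allows, were 0.159 to 0.833 CPM. For RIP and input, the authors deposited RPKM, listing only genes above 0. These lie on a scale 1000 times larger than usual and were divided by 1000. The depth behind them is unknown. The genome build is not given in the sources used here. Columns with the log2 ratios and p-values of the authors' own comparisons, and 32 other per-sample columns, were left out. The germline class of each gene, which carries no unit, was deposited by the authors from a published list.

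Counts were tested with edgeR 4.0.16 (TMM, quasi-likelihood test, one fit for each pair of genotypes, R 4.3.3), for genes with at least 10 counts in 2 libraries. Calls needed an adjusted p (Benjamini-Hochberg) under 0.05 and a log2 fold change beyond 2. Its standard errors were taken as the fold change over the square root of F. RPKM was tested with limma 3.58.1 (intensity trend) on log2(RPKM + 1), a pseudocount of 1, for genes with at least 1 RPKM in 2 libraries, at a log2 fold change of 1. Inputs and differences of enrichment came from one fit of 12 libraries. DESeq2 1.42.0 was an alternative. Other alternatives were library totals, filters, pseudocounts of 0.1 and 5, median-centred libraries, no trend, a replicate block and leaving out each library. Scripts were tested on simulated data. Tables were made with Python 3.11.15 and pandas 2.3.3.

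Members and lists were chosen with earlier results of these data known. Named besides the 7 are the highest and lowest genes of each list, *oma-1*, and the 3 genes with the highest correlation with the mean of the 7, at a mean of at least 100 counts or 10 RPKM. Of the names in the lists, *cde-1* and *rde-3* were not matched. Gene sequences were not used here, and 259 table rows that name no gene held 0 counts.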

Additional observations from a re-analysis of the deposited data

How the results depend on the processing

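Of the 7 genes, 5 were called in *oma-1(zu405)* against N2, and 4 to 5 when single libraries were left out, with *glh-4* at 1.79 to 1.97 in the fits that lost it. With library totals 3 were called, with 10 counts in 3 libraries 4, and in one fit of 6 libraries 0. Over all genes 4279 were called there and 0 in one fit. Also over all genes, the double mutant gave 0 against N2, 388 with DESeq2 and 497 without a filter. Against *oma-1(zu405)* it gave 0, 25 with DESeq2 and 79 without a filter. Of the 7 genes, 0 were called in either comparison, and against *oma-1(zu405)* 1 was called with DESeq2 and 1 without a filter. Against N2 the log2 fold changes of the 7 ran from −0.27 to 0.91 without D1 and from 0.13 to 2.86 without D3. Against *oma-1(zu405)* they ran from −3.80 to −0.76 without D1 and from −3.32 to −0.34 without D3. In that comparison with N2, *pgl-3* and *glh-4* turned to −0.021 and −0.40 with totals, and *elli-1*, near 0, to 0.043 with DESeq2, 0.0089 with 10 counts in 3 libraries and 0.018 in one fit of 6 libraries. Leaving out single libraries it ran from −0.33 (without A2) to 0.44 (without A1). The cause of these shifts was not tested.

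For RIP against input, 1 gene was called in oma-1-gfp, 0 without a filter or with median-centred libraries, and 0 to 2 when single libraries were left out. In oma-1ts-gfp 2 were called, and 1 with a pseudocount of 5 or median-centred libraries. In the *fzy-1* tagged strain 1 was called, 0 with a pseudocount of 5, without a filter or with median-centred libraries, and 0 to 1 when single libraries were left out. Signs turned for genes near 0. In oma-1-gfp, *glh-1* ran from −0.26 to 0.67 and *glh-2* from −0.042 to 0.42 when single libraries were left out. In oma-1ts-gfp *glh-2* turned to 0.13 with median-centred libraries. In the *fzy-1* tagged strain *glh-1* turned to 0.0047 with a pseudocount of 5 and 0.37 with median-centred libraries, and *elli-1* to 0.27 with the latter. There, leaving out single libraries, *glh-1* ran from −0.46 to 0.45, *glh-2* from −0.094 to 0.41 and *elli-1* from −0.52 to 0.32. The difference of enrichment between this strain and oma-1-gfp ran from −0.67 to 0.25 for *glh-1* and from −0.21 to 0.63 for *elli-1*. In the differences between oma-1ts-gfp and either other strain, and in the inputs of the *fzy-1* tagged strain against oma-1-gfp, 0 to 1 genes were called when single libraries were left out. The difference between the *fzy-1* tagged strain and oma-1ts-gfp gave 1 with a pseudocount of 0.1 or median-centred libraries. The cause was not tested.

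The replicate differences of input and RIP correlated at 0.0812, 0.0335 and 0.273 within the 3 strains, so the numbers were not taken to pair these samples, and the labels name no shared batch. Between oma-1-gfp and the *fzy-1* tagged strain, however, same-numbered libraries deviated together, at 0.463 for inputs and 0.561 for RIP, against 0.0383 to 0.088 between the other strains. With the replicate block 1 of the 7 genes (*elli-1*) was called in the difference between the *fzy-1* tagged strain and oma-1ts-gfp. Of the 7, 1 was also called in the inputs of the *fzy-1* tagged strain against oma-1-gfp, and 0 in each comparison without the block. In the RIP of the *fzy-1* tagged strain 3 of the 7 genes passed the limma adjusted p with the block (*pgl-1* as well, 0.0432) and 2 without it. The block changed none of the other counts of the 7 that were called. In embryos the numbers in the column names could not be tied to the labelled replicates. As an alternative chosen after seeing the data, those numbers served as a replicate block for N2 and *oma-1(zu405)*, whose replicate differences correlated at 0.165. With it 5 of the 7 genes were called, as without the block. No paired analysis was possible for the double mutant because D1 and D3 share only 1 number with either other genotype.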
